A study of Mus musculus with 278 samples.

Results

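The 43 Itgb1-high and 43 Itgb1-low keratinocytes compared here were chosen by their Itgb1 level, and together make up 86 of the 130 cells in the AG library sets and of the 278 cells in the series. Cells were ranked by Itgb1 TPM (a transcript level scaled for gene length and to the same total in every cell) within the AG untreated and the AG treated set, and the top tertile of each set was compared with the bottom tertile. The study co-cultured wild-type (WT) mouse keratinocytes, taken from adult back skin, with K14ΔNβ-cateninER keratinocytes at 9 parts to 1. In the latter the keratin 14 promoter, which is active in basal cells, drives a stable form of beta-catenin joined to the hormone-binding part of the oestrogen receptor, which 4-hydroxy-tamoxifen (4OHT) switches on. AG treated cultures received 200 nM 4OHT for 24 h, and AG untreated cultures received DMSO. Cells of both sets, single and viable by imaging, were captured on a microfluidic chip for medium-sized cells, and their RNA was copied in full length with SMART-Seq v4. Transgenic cells were not told apart from WT cells here. The labels give no culture or animal for a set, so p-values reflect only the spread between 2 library sets, which may be technical. These sets also differ in treatment, so they are not plain replicates. With 2 sets, the spread used for a gene is mostly borrowed from other genes of similar level. A further 8 cells, whose name and treatment label disagree, were left out. The GHA501A series, the same co-culture with 71 untreated and 69 treated cells, was not used in choosing the cells and served for comparison.

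Itgb1 encodes integrin beta1, which pairs with several alpha subunits to form the main receptors by which basal keratinocytes hold on to laminins, collagens and fibronectin in the basement membrane. Inside the cell, talin, vinculin, zyxin and focal adhesion kinase join the clustered integrins to actin. High surface beta1 integrin has long been used to enrich cultured keratinocytes for stem cells, and keratinocytes lose it as they leave the basal layer to differentiate.

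Itgb1 itself, which set the groups and is therefore described without a test, was over 1 TPM in 66 of 66 AG untreated and 63 of 64 AG treated cells. In the AG untreated set, the 22 Itgb1-low cells ran from 29.5 through a median of 145.3 to 187.8 TPM, and the 22 Itgb1-high cells from 288.5 through 441.3 to 2287.1 TPM. In the AG treated set, the 21 Itgb1-low cells ran from 0 through 69.1 to 108.998 TPM, and the 21 Itgb1-high cells from 256.0 through 335.5 to 1105.8 TPM. The cut-offs fell within a continuous range. The cells next to them in the middle tertile had 189.2 and 283.9 TPM in the untreated set and 113.6 and 253.5 TPM in the treated set. Since cells were ranked within each set, an Itgb1-low untreated cell could have more Itgb1 than a treated cell of the middle tertile.

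**Figure D1:**
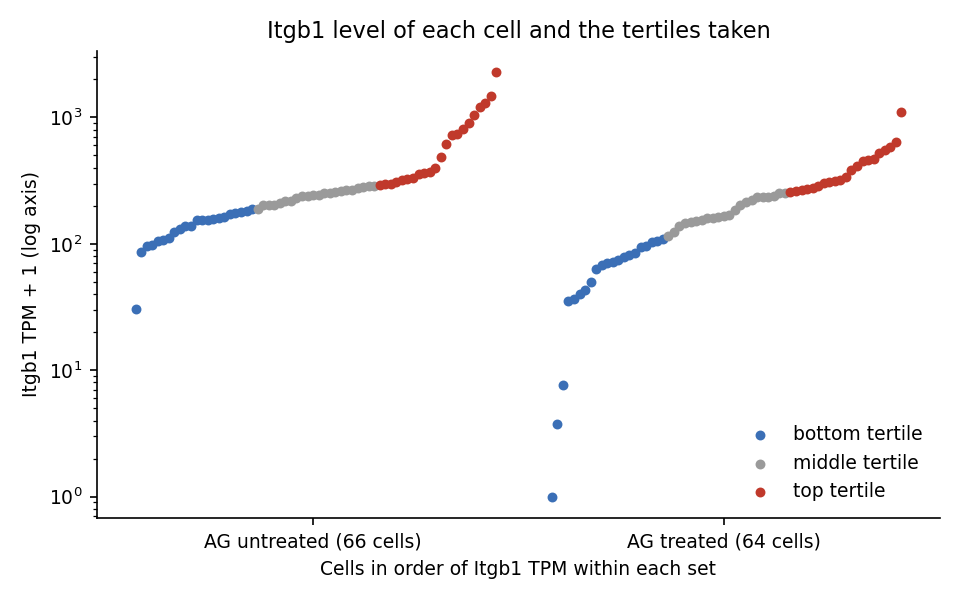
Itgb1 TPM plus 1 on a log axis for each cell, in order of rank, in the AG untreated (66 cells) and AG treated (64 cells) sets, with each tertile in its own colour. The top tertiles start at 288.5 TPM in untreated and 256.0 TPM in treated cells, and no gap separates them from the middle tertiles.

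The cells matched their label. Summed over 6 keratinocyte markers (Krt5, Krt14, Krt15, Krt17, Dsp and Perp), the median cell had 18030 TPM in Itgb1-low and 20700 TPM in Itgb1-high untreated cells, and 24150 and 26010 TPM in treated cells. Over 6 fibroblast markers the medians were between 0.263 and 2.397 TPM, with a highest cell at 530.8 TPM. Lyz2, the one immune marker in the table, was higher in Itgb1-high cells, with medians of 7.76 and 29.2 TPM in the Itgb1-low and Itgb1-high cells of the untreated set and 9.47 and 34.04 TPM in those of the treated set. The 3 melanocyte markers had medians from 33.2 to 55.4 TPM and the 4 Merkel cell markers from 17.4 to 43.7 TPM, of which Krt20, Atoh1 and Isl1 were at a median of 0, as were both endothelial markers. The part of these cell type markers in the differences below was not tested. The median number of genes over 1 TPM was 5965.5 in Itgb1-low and 5953.5 in Itgb1-high untreated cells, and 6351 and 6334 in treated cells. The differences of these medians, -12 and -17 genes, were small beside the range of 2538 to 7410 genes over these cells (exact permutation of signs, two-sided p = 0.5, the smallest that 2 sets allow). Cells under 5000 genes were unevenly placed, with 11 among the Itgb1-low and 6 among the Itgb1-high cells. From the bottom through the middle to the top tertile, there were 6, 0 and 5 such cells in the untreated set. In the treated set there were 5, 1 and 1 such cells, so few lay in the middle tertiles. Their part in the differences below was tested only by leaving them out.

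To ask which other genes differ with Itgb1, the mean log2(TPM + 1) of the cells in the top and the bottom tertile was compared by limma with the library set as a block, and differences below are on that scale, which understates changes of low genes. Of 10939 genes over 1 TPM in more than 5 AG cells, 1 was higher (0.00914%) and 2 were lower (0.0183%) in Itgb1-high cells at a Benjamini-Hochberg adjusted p under 0.05 and a difference over 0.5. The gene that rose was Tgfbi, and those that fell were the histone genes Hist1h2ai and Hist1h2af. An unadjusted p under 0.05 was found by limma for 940 of the 10939 genes, of which 608 were higher and 332 lower. Counts at this threshold in the gene lists below are to be read beside that share. Pearson's r between the differences of the 2 sets was 0.118 across genes (genes are not independent replicates), and 52.7% of genes had the same sign, 31.6% higher and 21.1% lower in both. The median difference over all genes was 0.07. A difference over 0.5 in the same direction in both sets, the count used for gene lists below, was found for 802 genes higher (7.33%) and 382 genes lower (3.49%) in Itgb1-high cells. Genes whose mean went up in order from the bottom through the middle to the top tertile in both sets numbered 430 (3.93%), and 210 (1.92%) went down in order. Differences of this kind could not be compared between treated and untreated cells by a test, since each treatment has 1 AG set.

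**Figure D2:**
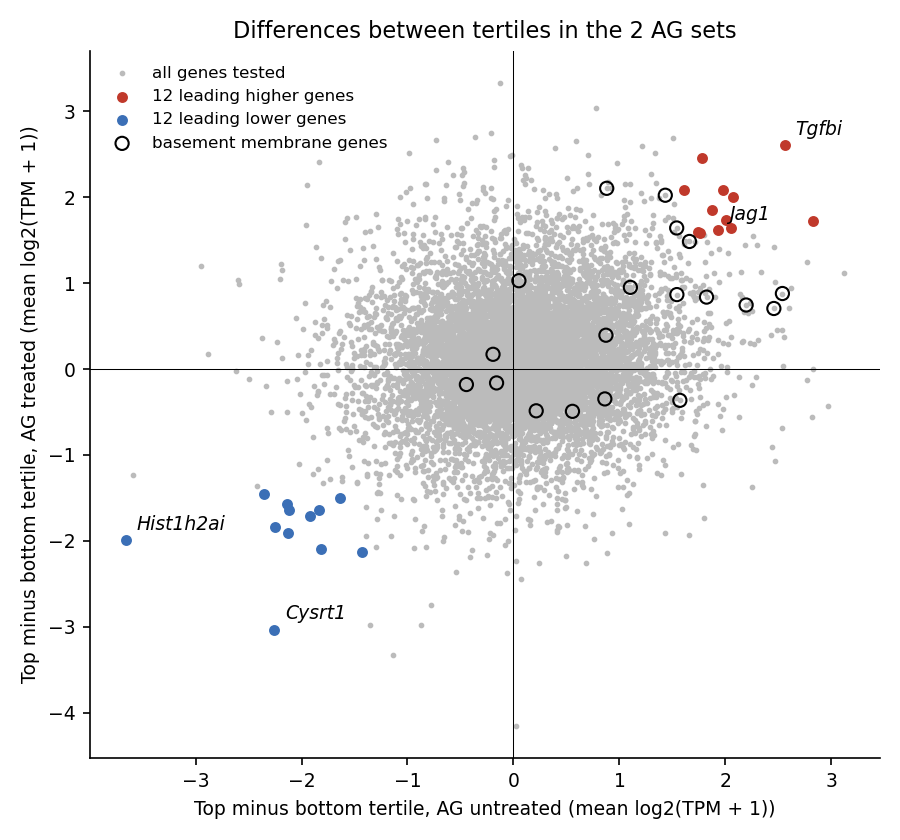
Each point is 1 of 10939 genes, with its top minus bottom tertile difference in mean log2(TPM + 1) in the AG untreated set on the x axis and in the AG treated set on the y axis. Most genes form a round cloud (r = 0.118), the 12 leading genes of each direction lie in opposite corners, and 10 of the 19 circled basement membrane genes lie over 0.5 in both sets.

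Tgfbi, on chromosome 13 of GRCm38 from 56609523 to 56639562 on the plus strand, encodes a secreted matrix protein that is induced by TGF-beta and binds integrins and collagen. In untreated cells it ran from 0 through a median of 11.6 to 521.9 TPM in the Itgb1-low group and from 0 through 87.7 to 1151 TPM in the Itgb1-high group. In treated cells it ran from 0 through 17.1 to 574.6 TPM in the Itgb1-low group and from 0 through 158.9 to 1038 TPM in the Itgb1-high group. The groups overlapped widely in both sets, and 28 of 43 Itgb1-low and 40 of 43 Itgb1-high cells were over 1 TPM. Its mean was higher by 2.56 in untreated and 2.61 in treated cells (mean 2.58, standard error 0.45, limma adjusted p = 0.0209, n = 2 sets). The middle tertile of treated cells had more Tgfbi than the top tertile, with means of 6.95 and 6.26. With cells under 5000 genes left out the difference was 1.88 and no longer passed (adjusted p = 0.51).

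Hist1h2ai, on chromosome 13 from 21716422 to 21716814 on the plus strand, and Hist1h2af, on chromosome 13 from 23533906 to 23534304 on the plus strand, encode histone H2A made for DNA replication. Hist1h2ai had a median of 132.1 TPM in Itgb1-low and 14.2 TPM in Itgb1-high untreated cells, and of 117.0 and 56.9 TPM in treated cells. Each of these groups held cells at 0, and the highest cells had 12500 and 1191 TPM in the untreated and 14610 and 211.2 TPM in the treated set. The difference was -3.65 in untreated and -1.99 in treated cells (mean -2.82, standard error 0.47, limma adjusted p = 0.0155, n = 2 sets). The middle tertile of treated cells had slightly less Hist1h2ai than the top tertile, with means of 4.67 and 4.79. In GHA501A Hist1h2ai differed by -0.97 in untreated and 1.91 in treated cells. Hist1h2af was over 1 TPM in 13 of 43 Itgb1-low and 8 of 44 middle cells, and it was listed at 0 in all 43 Itgb1-high cells, so no fold is given. It thus passed the filter only through groups other than Itgb1-high. Its call (limma adjusted p = 0.0155) is therefore given as a value and not as support. These genes have near-identical copies and multiply-mapped reads were discarded by the authors, so the value of each copy is uncertain. Over 57 replication histone genes, a set taken after the values were seen, 4 Itgb1-low cells held over 10000 TPM each, up to 125400 TPM or 12.5% of a cell's total, and each of the 4 had under 5000 genes. The same 4 cells held 42540 to 327300 TPM of Gm20594, a gene model whose median was 833.9 to 1912 TPM in the 6 tertiles of the AG sets. Gm20594 was also high in cells other than these 4. It reached 232800 TPM in a treated Itgb1-low cell and 110800 TPM in an Itgb1-high cell. No Itgb1-high cell exceeded 5653 TPM of histone genes. The medians of the summed histone level did not fall in order, with 953.5, 1415 and 690 TPM from the bottom to the top tertile of untreated cells and 967.1, 800.6 and 936.7 TPM in treated cells. Of 52 such genes tested, 23 were lower in Itgb1-high cells by over 0.5 in both sets and 0 were higher, beside 3.49% and 7.33% of all genes. Their median difference was -0.70 against 0.07 for all genes. Both the count of 23 and this median include the 4 cells of high histone level. Without those 4 cells the median became -0.23, and 3 genes passed the test: Hist1h2af, Hs3st3a1 and Cysrt1. Tgfbi and Hist1h2ai then had an adjusted p of 0.177 each, with differences of 2.04 and -2.27. Removing all cells under 5000 genes left 0 genes past the test by limma, with 913 at an unadjusted p under 0.05.

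The bases just upstream of these genes are shown beside those of Itgb1, since the calls of the test turn on these genes. They come from RefSeq on GRCm38.p6, are read 5′ to 3′ in the direction of the gene and end before its annotated start, with the part of the Tgfbi window nearest to the gene shown. Capitals mark 4 motifs on either strand, which are the CCAAT box, the AP-1 motif TGANTCA, the TEAD motif GGAATG and the motif of Sp and KLF factors GGGCGG.
Itgb1, chr8:128685404-128685653, plus strand: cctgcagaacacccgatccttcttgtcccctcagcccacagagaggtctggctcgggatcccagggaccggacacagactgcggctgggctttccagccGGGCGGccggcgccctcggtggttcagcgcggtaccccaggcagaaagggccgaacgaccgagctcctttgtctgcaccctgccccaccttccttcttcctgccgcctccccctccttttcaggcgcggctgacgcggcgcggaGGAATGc
Tgfbi, chr13:56609336-56609522, plus strand: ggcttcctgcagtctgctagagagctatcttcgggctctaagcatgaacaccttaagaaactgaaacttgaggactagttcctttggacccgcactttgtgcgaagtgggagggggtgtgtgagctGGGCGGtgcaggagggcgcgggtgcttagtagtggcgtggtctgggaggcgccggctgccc
Hist1h2ai, chr13:21716162-21716411, plus strand: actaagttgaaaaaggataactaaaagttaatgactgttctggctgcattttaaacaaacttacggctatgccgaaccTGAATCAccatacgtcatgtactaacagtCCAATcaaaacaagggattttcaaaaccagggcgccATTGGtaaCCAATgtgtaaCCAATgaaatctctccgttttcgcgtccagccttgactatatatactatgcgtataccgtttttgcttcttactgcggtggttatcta
Hist1h2af, chr13:23533625-23533874, plus strand: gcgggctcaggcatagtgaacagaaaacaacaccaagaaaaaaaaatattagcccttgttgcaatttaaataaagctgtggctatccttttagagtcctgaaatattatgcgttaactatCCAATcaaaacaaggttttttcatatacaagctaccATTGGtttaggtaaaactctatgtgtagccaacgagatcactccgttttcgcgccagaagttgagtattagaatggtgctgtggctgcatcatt
The Hist1h2ai sequence holds 4 CCAAT matches and the Hist1h2af sequence 2, whereas Itgb1 and Tgfbi hold 0 and have 1 GGGCGG match each. Itgb1 also has 1 GGAATG match, next to its start. Over the 250 bases upstream of all 32851 RefSeq starts, 33.8% held CCAAT, 6.75% TGANTCA, 12.6% GGAATG and 32.7% GGGCGG. Among the 12 leading genes of each direction, defined below, 7 higher and 8 lower genes were found in the RefSeq table, and all starts of a gene were counted together. CCAAT was present in 1 of the 7 higher and all 8 lower genes, 4 of which are histone genes, and GGGCGG in 6 of the 7 and 0 of the 8. TGANTCA and GGAATG were each present in 1 of the 7 and 3 of the 8. These counts are by gene and the shares above by start, so they are not like for like. Of 48 histone genes found, 39 (81.2%) held CCAAT and 17 (35.4%) GGGCGG. These matches are descriptions of letters and not of binding.

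Genes of the basement membrane and the hemidesmosome formed the list with the highest median difference of the 19 described here. Of 24 listed genes 20 could be tested, and 11 of these were higher in Itgb1-high cells by over 0.5 in both AG sets, against 7.33% of all genes, while 0 were lower. Their median difference was 1.12 (1.27 in untreated and 0.79 in treated cells) beside 0.07 for all genes tested. None of the 20 passed the adjusted test by limma, and 11 had an unadjusted p under 0.05. The genes of this list named here were singled out after their values were seen.

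Lama3 and Lamb3, the alpha3 and beta3 chains of the anchoring laminin of the epidermis, were higher in Itgb1-high cells of both sets. Lama3 was higher by 2.46 in untreated and 0.70 in treated cells (limma adjusted p = 0.25), and Lamb3 by 2.19 and 0.75 (adjusted p = 0.347). The mean of both went up in order over the 3 tertiles in each set.

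A further 8 members over 0.5 in both sets included collagens, laminins and matrix proteins. Col17a1, the hemidesmosomal collagen XVII, was higher by 2.54 and 0.88, and Col7a1, the collagen of anchoring fibrils, by 1.82 and 0.84. Lamb1 and Lamc1, chains of the broadly made laminins, were higher by 1.54 and 1.64 and by 1.66 and 1.48. The matrix genes Fn1 (fibronectin), Tnc (tenascin C), Sparc and Agrn (agrin) were higher by 0.88 and 2.10, 1.43 and 2.02, 1.10 and 0.95, and 1.54 and 0.87 in the untreated and treated set. Adjusted p-values from limma over these 8 genes ran from 0.174 to 0.479. Col4a1, Col4a2, Lama5 and Hspg2 (perlecan) were higher in the untreated and lower in the treated set, and the nearly undetected Col18a1 and Nid1 were lower in both. In 8 of the 20 genes the mean went up in order over the 3 tertiles in both sets, against 3.93% of all genes.

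**Figure D3:**
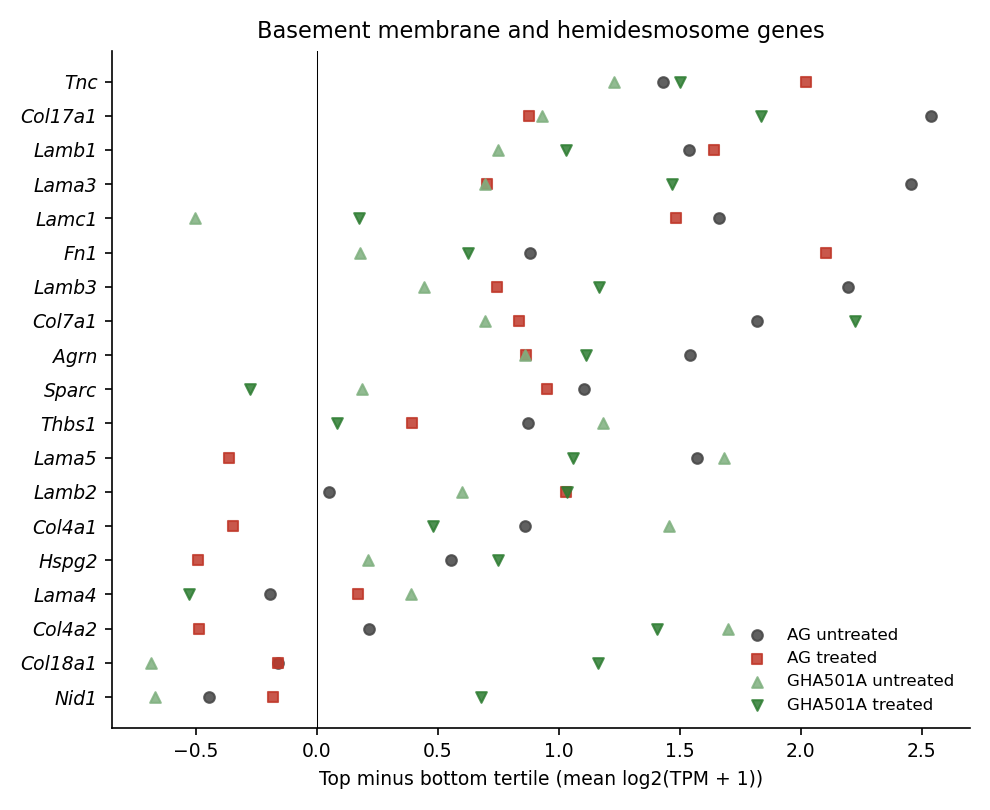
Top minus bottom tertile difference in mean log2(TPM + 1) for 19 basement membrane and hemidesmosome genes, in each AG set and each GHA501A set. In the upper 10 rows both AG values exceed 0.5, led by Tnc at 1.43 and 2.02, and both GHA501A values of Lamc1, Fn1 and Sparc lie below both AG values.

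The other integrin subunits did not form a common pattern. Of 24 subunits listed, 12 were tested, and 0 passed by limma (1 at an unadjusted p under 0.05). By over 0.5 in both sets 2 were higher and 0 lower, beside 7.33% and 3.49% of all genes. The median of the 12 was 0.37 (0.93 in untreated and -0.08 in treated cells). Itga6, the alpha6 chain of the laminin receptors, had a median of 35.2 TPM in Itgb1-low and 98.03 TPM in Itgb1-high untreated cells, and of 34.5 and 62.8 TPM in treated cells. It was higher by 1.17 and 1.15 (standard error 0.44, limma adjusted p = 0.429). Itgav, the alphaV chain of the fibronectin and vitronectin receptors, was higher by 0.95 and 0.76 (adjusted p = 0.622). Itga3, the alpha3 chain of a laminin receptor, differed by 2.13 in untreated and -0.09 in treated cells (adjusted p = 0.614). Itga2, the alpha2 chain of the collagen receptor, likewise differed by 2.44 and -0.90 (adjusted p = 0.789). Itga5, the alpha5 chain of the fibronectin receptor, differed by 0.92 and 0.03. Differences were between -0.45 and 0.41 in each set for Itga2b, Itga4, Itga7, Itga11 and Itgb8, 0.98 and 0.17 for Itgb3, and 1.18 and -0.71 for Itgb7. Itga4 was over 1 TPM in 100 of the 130 cells. Itga2b, Itga7, Itga11, Itgb7 and Itgb8 were over 1 TPM in 29 cells or fewer. Of the subunits that missed the filter, Itgb4, the beta4 partner of alpha6 in hemidesmosomes, was listed at 0 in all 130 AG cells, which does not show that it was not expressed, since keratinocytes are known to make it and an exact 0 can be a failed estimate, and Itga1, Itga8, Itgae, Itgb2 and Itgb6 were over 1 TPM in at most 4 cells.

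Adaptors that link integrins to actin were higher more often than lower. Of 35 tested adaptors, 13 were higher by over 0.5 in both sets and 1, Sorbs3 (vinexin), was lower, beside 7.33% and 3.49% of all genes. Their median difference was 0.34 (0.45 in each set), and 0 passed by limma (10 at an unadjusted p under 0.05). Zyx (zyxin) was higher by 1.37 in untreated and 1.99 in treated cells, Ptk2 (focal adhesion kinase) by 2.47 and 1.02, and Vcl (vinculin) by 1.14 and 1.20. The filamin Flna, which crosslinks actin, was higher by 1.25 and 1.47. Limma adjusted p-values of these 4 genes, which were named after their values were seen, ran from 0.174 to 0.362. Of 26 tested genes of actin contractility and of YAP or SRF targets, 7 were higher by over 0.5 in both sets and 1 was lower, beside the same shares. Their median was 0.60, 0 passed by limma and 3 had an unadjusted p under 0.05. The one that was lower, Ctgf, a target of YAP and TGF-beta, differed by -1.18 and -0.61 (adjusted p = 0.663).

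**Figure D4:**
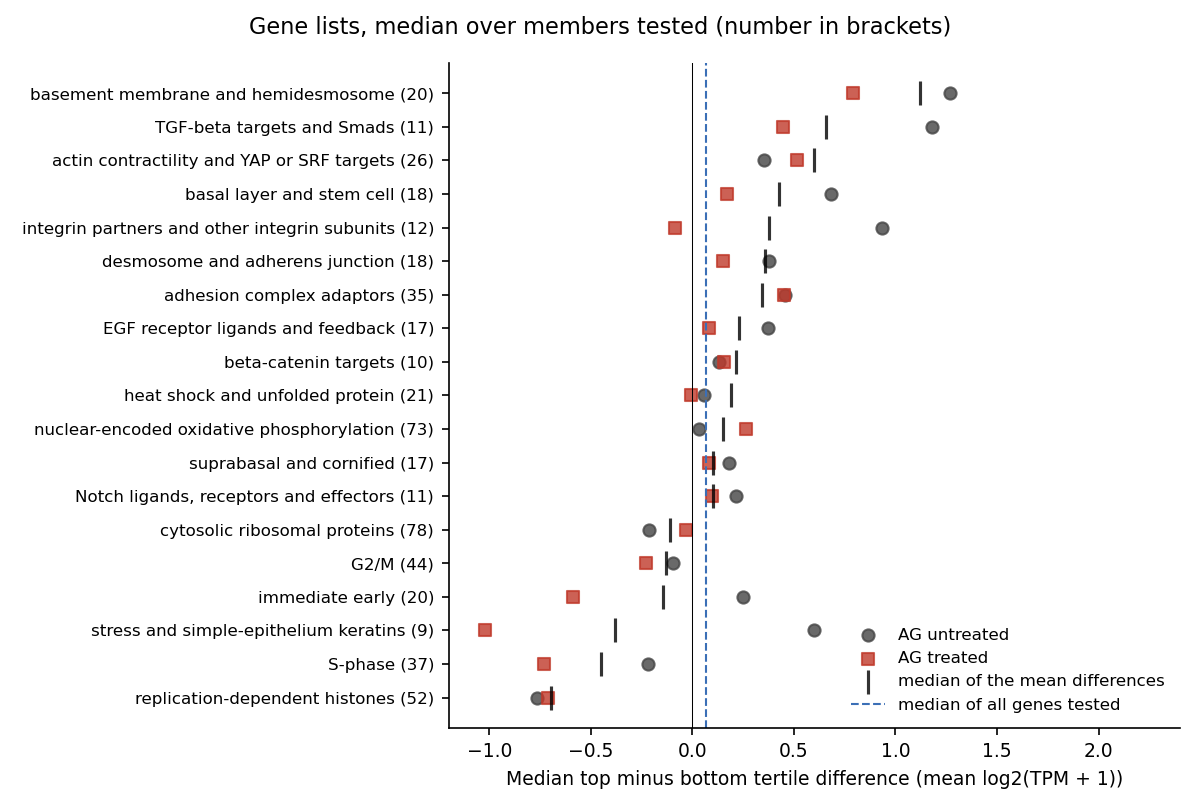
Median top minus bottom tertile difference in mean log2(TPM + 1) over the tested members of each list, in AG untreated cells, AG treated cells and for the mean of both, with the median of all genes tested as a dashed line at 0.07. Basement membrane genes lie at the top at 1.12, histone genes at the bottom at -0.70, and the sets lie on opposite sides of 0 for the stress keratins (0.60 and -1.02).

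Among 11 tested genes of TGF-beta signalling, 7 were higher and 0 lower in both sets, beside 31.6% and 21.1% of all genes. By over 0.5 in both sets 3 were higher, beside 7.33% of all genes, and the median was 0.66. Tgfbi passed, as described above. Smad3, a transducer of the signal, was higher by 1.18 and 0.93 (adjusted p = 0.526), and the ligand Tgfb2 by 0.41 and 1.99 (adjusted p = 0.429). Id1, which is not in the list and is repressed by TGF-beta in keratinocytes and induced by BMP, was lower by -1.43 and -2.12 (adjusted p = 0.194). Id1 is among the 12 leading lower genes, so its direction was fixed by the way it was chosen. In GHA501A it differed by 0.24 and 0.64. It was over 1 TPM in 53 of the 130 cells. Ctgf, described above as a target of YAP and TGF-beta, was also lower in both sets. The part of TGF-beta signalling in these differences was not tested. In GHA501A the list had medians of 0.20 and -0.08.

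Genes of the basal layer had a median difference of 0.43, with 10 of 18 higher and 0 lower in both sets (31.6% and 21.1% of all genes), 4 higher by over 0.5, 0 past the test by limma and 4 at an unadjusted p under 0.05. The 4, against 7.33% of all genes, were Col17a1, Itga6, Cd9 and Mt2. All but Mt2 also belong to lists described above, so they are not separate evidence. Krt5 and Krt14, the basal keratin pair, were not among the 10 higher in both sets. Krt14 differed by 0.19 in untreated and -0.34 in treated cells, and Krt5 by 0.93 and -0.84. Krt5 and Krt14 together had a median of 6174 TPM in Itgb1-low and 6908 TPM in Itgb1-high untreated cells and 5923 and 6870 TPM in treated cells, with overlapping ranges. Mt2, a metallothionein that binds zinc, was higher by 1.62 and 1.49 (adjusted p = 0.176). Its mean was highest in the middle tertile of both sets, at 7.68 in untreated and 8.68 in treated cells. The top tertiles had means of 7.46 and 8.54. In GHA501A Mt2 differed by -0.27 and -1.28.

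Genes of differentiation went in both directions. Of 17 tested suprabasal and cornified envelope genes, 1 was higher and 3 were lower by over 0.5 in both sets, beside 7.33% and 3.49% of all genes. The share of higher genes was thus near that of all genes. By limma 0 passed (4 at an unadjusted p under 0.05), and the median was 0.10. Krt10, the suprabasal keratin, differed by 0.57 and 0.16 (adjusted p = 0.92), and Ivl (involucrin), a cornified envelope protein, was higher by 1.76 and 0.95 (adjusted p = 0.288). Ivl was over 1 TPM in only 6 of 43 Itgb1-low and 14 of 43 Itgb1-high cells. The cell with the most Ivl, at 3615 TPM, was Itgb1-low. Sprr1b, a cornified envelope precursor, was over 1 TPM in 22 of 43 Itgb1-low and 11 of 43 Itgb1-high cells and lower by -2.13 and -1.91 (adjusted p = 0.174). Cst6 (cystatin M/E), an inhibitor of proteases of cornification, was lower by -0.66 and -1.998. Of 9 stress and simple-epithelium keratins, 0 were higher and 2 lower in both sets by over 0.5, beside 7.33% and 3.49% of all genes. The 2 were Krt7, by -0.76 and -1.31, and Krt80, by -1.14 and -0.73. Of the 9, 0 passed the test by limma and 3 had an unadjusted p under 0.05.

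Of 37 tested S-phase genes, 16 were lower and 1 was higher in both sets, beside 21.1% and 31.6% of all genes. By over 0.5 in both sets 2 were lower and 0 higher, a share near the 3.49% of all genes that were lower. Their median difference was -0.45 (-0.22 without and -0.73 with 4OHT). None passed by limma, and 5 had an unadjusted p under 0.05. The summed level of the 40 S-phase genes in the table had nearly the same median in untreated cells, 979.5 TPM in Itgb1-low and 980.2 TPM in Itgb1-high cells, and 1355 and 759 TPM in treated cells. For 44 G2/M genes the median difference was -0.13 (0 passed by limma and 1 had an unadjusted p under 0.05), and Mki67, a mark of cycling cells, differed by 0.50 and -1.11. Cells were not assigned to phases.

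Of 18 tested genes of desmosomes and adherens junctions, 5 were higher by over 0.5 in both sets, against 7.33% of all genes, and 0 were lower, with a median of 0.36 (0.38 untreated, 0.15 treated). Over 78 ribosomal protein genes 30 were lower and 12 higher in both sets, beside 21.1% and 31.6% of all genes, but 1 was higher and 1 lower by over 0.5 in both, and the median was -0.11. Medians were 0.15 for 73 genes of oxidative phosphorylation, 0.19 for 21 of heat shock, 0.23 for 17 of EGF receptor ligands and feedback, 0.22 for 10 beta-catenin targets and 0.10 for 11 of Notch signalling. For 20 immediate early genes, which respond within minutes to growth factors or handling, it was -0.14, 0.25 for untreated and -0.59 for treated cells. None of these had a member past the test by limma. Their unadjusted p was under 0.05 for 0 beta-catenin targets and at most 4 genes of each other list in this paragraph.

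Genes were also named by size of the smaller of their 2 differences, 12 in each direction, with those past the test ahead. Beside Tgfbi, the higher genes included Hnrnpul2, Fam160b1, Sorcs2, Stmn2, Pla2g7, Ppp2cb, Jag1, Hs3st3a1, Palld and Nampt, with mean differences from 1.67 to 2.12 and limma adjusted p from 0.0853 to 0.246. Jag1, a Notch ligand (chromosome 2, 137081456 to 137116644, minus strand), was the most abundant. It had a median of 464.8 TPM in Itgb1-low and 2048 TPM in Itgb1-high untreated cells, and of 102.9 and 301.8 TPM in treated cells. The ranges overlapped, from 43.4 to 2147 and from 180.3 to 7498 TPM in untreated cells and from 2.65 to 1593 and from 0 to 1705 TPM in treated cells. It was higher by 1.93 and 1.61 (standard error 0.39, adjusted p = 0.11). Palld (palladin), an actin-bundling protein of focal adhesions, was higher by 1.74 and 1.60, and Hs3st3a1, which sulfates heparan chains, was over 1 TPM in 38 of the 130 cells and higher by 1.61 and 2.08. The other lower genes were Cysrt1, Sprr1b, Snapc5, Slfn2, Mal2, Hist1h2an, Hist2h2ac, Tst, Cd14 and Id1, with mean differences from -1.57 to -2.64 and adjusted p from 0.055 to 0.204. Cysrt1 was over 1 TPM in 28 of 43 Itgb1-low and 12 of 43 Itgb1-high cells. Its median went from 2.29 to 0 TPM in untreated and from 45.9 to 0 TPM in treated cells, a difference of -2.26 and -3.03 (adjusted p = 0.055).

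**Figure D5:**
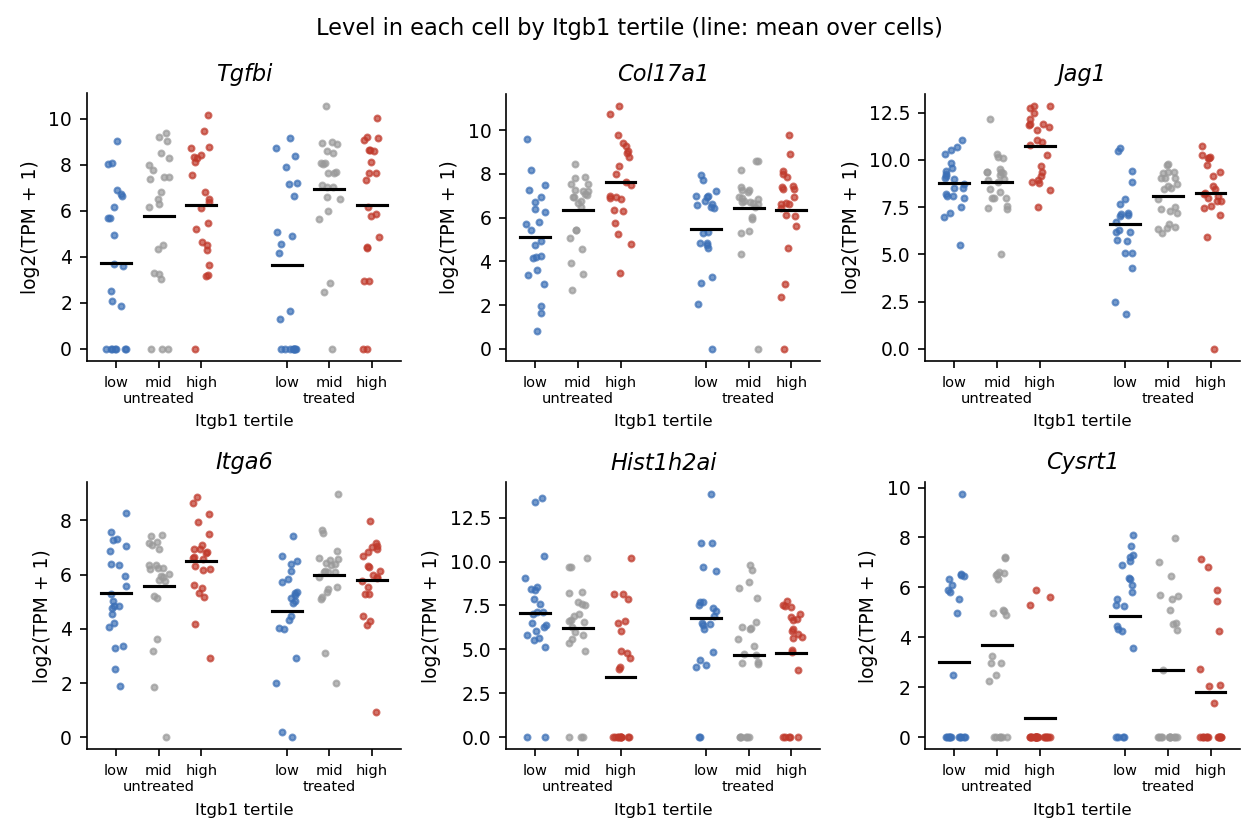
log2(TPM + 1) of Tgfbi, Col17a1, Jag1, Itga6, Hist1h2ai and Cysrt1 in each cell of the bottom (low), middle and top (high) Itgb1 tertile of the AG untreated and AG treated sets, with the mean as a line. The groups overlap for every gene, cells at 0 are fewer in the top tertile for Tgfbi (28 and 40 of 43 cells over 1 TPM from bottom to top) and more frequent for Cysrt1 (28 and 12 of 43).

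Over all cells of a set rather than the tertiles, the 5945 genes detected in at least 50% of the cells were ranked by the mean of their Spearman correlations with Itgb1 in the 66 untreated and the 64 treated cells. These cells share a library set, and the values are a description. The highest were Jag1 (0.504 and 0.406), Cald1 (caldesmon, an actin-binding protein; 0.432 and 0.451), Hnrnpul2 (0.432 and 0.447), Usp32 (0.540 and 0.310) and Micall1 (0.618 and 0.224). The lowest were Nmt1 (-0.495 and -0.3), Rpl6 (-0.436 and -0.332), Pfdn6 (-0.309 and -0.402), Cysrt1 (-0.350 and -0.350) and Krt6b (-0.274 and -0.368). The median over genes was 0.02, and 81 genes had a mean over 0.3 and 8 under -0.3.

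Cells of the GHA501A sets were ranked in the same way, giving 23 Itgb1-high and 23 Itgb1-low cells in each. These cells had other marker levels, as the 6 keratinocyte markers summed to a median of 20.4 to 169.9 TPM and the 6 fibroblast markers to 887.7 to 1445 TPM in the 4 groups, so the series and this difference in markers cannot be told apart. By the same test 0.478% of 11089 genes were higher and 0.947% lower in Itgb1-high cells. Of the differences over 0.5 in both sets, 988 genes were higher (8.91%) and 656 lower (5.92%). The genes higher in both AG sets and those higher in both GHA501A sets overlapped by 16.5% of the 781 AG genes tested there and 13.1% of the GHA501A genes. For lower genes, 36 were shared, 10.0% of the AG and 5.49% of the GHA501A genes. The AG and GHA501A differences were compared gene by gene in one fit, and 0 of 9878 genes (0.0%) passed by limma, with 773 at an unadjusted p under 0.05.

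Some genes were higher in all 4 sets. Itga6 was higher by 1.85 and 2.15 in GHA501A (limma adjusted p = 0.00661), Tnc by 1.23 and 1.502 (adjusted p = 0.0386) and Jag1 by 1.499 and 0.99 (adjusted p = 0.0896). Basement membrane genes had medians of 0.65 and 1.05 there. The keratinocyte markers also summed to a higher median in Itgb1-high cells of both GHA501A sets. These medians were 20.4 TPM in Itgb1-low and 28.1 TPM in Itgb1-high untreated cells, and 70.3 and 169.9 TPM in treated cells. Krt17 was higher by 2.48 and 1.92 in GHA501A (limma adjusted p = 0.00027), while Krt15 differed by -0.18 and 0.21. The part of keratinocyte marker levels in the GHA501A differences was not tested. Tgfbi differed by 0.20 and -0.27 in GHA501A, and the test of its AG minus GHA501A difference gave 2.62 with an adjusted p of 0.399. Stmn2 (stathmin 2, a microtubule regulator) was higher by 1.78 and 2.46 in AG and differed by -1.32 and -0.43 in GHA501A, with an adjusted p of 0.399 for the difference.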

How the data were processed

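The authors deposited 1 table of TPM for 14145 genes in single cells. According to the labels and the study's methods, alignment was by TopHat on GRCm38, reads that mapped to several places were dropped, and featureCounts gave the counts behind the TPM. Each cell sums to 1000000, so depth per cell and the precision of a low value are unknown. Another 16 columns matched no label and were not used. Cells were ranked by Itgb1 TPM within each AG set (Itgb1 excluded from tests). The test took genes over 1 TPM in more than 5 cells and the average of log2(TPM + 1), a pseudocount of 1, over the cells of a tertile. Cells were not replicates: limma 3.58.1 in R 4.3.3 (trended empirical Bayes, two-sided, Benjamini-Hochberg over all genes) compared 2 high with 2 low means, with the set as a replicate block. The AG sets pair their own tertiles, since both come from the same cells' library set.

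Members and gene lists were chosen with earlier results of these data known. Named genes were all tested integrins, up to 4 passing genes per list, 12 genes per direction by the smaller difference of the 2 sets (predicted genes left out), 5 per direction by correlation, and Krt14, Krt5, Krt10, Mt2 and cell type markers. Other list members were named after their values were seen. Some lists share members. The fits were tested on simulated data. Alternatives were a pseudocount of 0.1, other filters, tertile definitions, adjustments and scalings, and each set left out. Leaving out the 4 cells with over 10000 TPM of histone genes was added after seeing the data. Results that need some withheld genes are not reported here. Gene positions are from GENCODE M21 and Python 3.11.15 was used.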

Additional observations from a re-analysis of the deposited data

Results flagged for a closer look

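For 3 gene lists the median difference between Itgb1-high and Itgb1-low cells had 1 sign in both AG sets and the other in both GHA501A sets. These differences between the series were not tested at the level of the list. S-phase genes had a median of -0.45 over the AG sets (-0.22 and -0.73) against 0.21 and 0.23 in GHA501A. G2/M genes had -0.13 in AG (-0.09 and -0.23) against 0.34 and 0.31. Genes of oxidative phosphorylation had 0.15 in AG (0.03 and 0.27) against -0.25 and -0.55. GHA501A cells had low keratinocyte and high fibroblast marker levels, and the part of this in the contrast was not tested.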

How the results depend on the processing

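The 3 genes past the test were not stable. In the AG sets 3 passed with a pseudocount of 0.1, with the upper 50% against the lower 50% of cells or without the 4 cells of high histone level, 4 after adjustment for genes detected, 2 after adjustment for genes detected and cell cycle or with ranks by Itgb1 residual, and 6 with the 8 cells included by label. With every other alternative 0 passed by limma: no filter, detection in at least 25% of cells, log2 of mean TPM, the top against the bottom 25% of cells, the trend over tertiles, cells under 5000 genes left out, rescaled TPM, spread pooled with GHA501A and no mean-variance trend (623 to 1044 genes at an unadjusted p under 0.05). Leaving out the untreated or the treated set, with the spread taken from the other sets, also gave 0, with 1285 and 1328 genes at an unadjusted p under 0.05. Without the replicate block 0 passed (455 at an unadjusted p under 0.05). In GHA501A the count of genes became 0 with log2 of mean TPM, after adjustment for genes detected or without the replicate block, 53 with the upper against the lower 50%, 68 without cells under 5000 genes and 205 with a pseudocount of 0.1. The comparison of AG with GHA501A gave 0 in all 6 alternatives, the fit without the replicate block included. The cause of these changes was not tested.

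Over all named genes 63 of 1831 values under the alternatives had the other sign. None of 455 did for the 24 leading genes, whose sign in both sets was fixed by the way they were chosen, so this is no sign of stability. The basement membrane median stayed between 0.62 and 1.38, TGF-beta genes between 0.45 and 1.18, S-phase genes between -0.73 and -0.04 and histone genes between -2.55 and -0.23. Integrin genes changed sign in 10 of 223 values. Rescaling TPM moved the median of all genes by under 0.1. The mean difference in genes detected ran from -228.2 to -12, but with the top against the bottom 25% of cells it was -169 for untreated and 81.5 for treated cells.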
